A study of Mus musculus with 4 samples.

Results

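Copying the genome once per cell cycle takes a chain of protein complexes. The origin recognition complex with CDC6 and CDT1 loads the MCM helicase ring onto DNA in G1, CDC45 and the GINS complex switch the ring on, and primase and the DNA polymerases then copy both strands behind it, held to DNA by the sliding clamp PCNA. Many of the genes are switched on together at the G1/S boundary by E2F transcription factors, so their RNA is widely used as a sign of cells entering or passing through S phase. In the epidermis most dividing cells are basal keratinocytes, while Langerhans cells, the dendritic cells of this layer, renew themselves slowly in place.

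The 45 genes described here are DNA replication and S-phase genes, taken by gene symbol from a table of 55487 genes; each symbol had 1 row, and all 45 passed the filter on low counts together with 39439 genes in all. The libraries hold total RNA of Langerhans cells isolated from the ears of wild-type mice. There were 2 libraries from ears treated with imiquimod, a Toll-like receptor 7 agonist used to give a psoriasis-like inflammation, and 2 from ears treated with Vaseline as the control. The labels give no age or length of treatment and do not tell whether replicates are different mice, so the p-values rest on library-to-library spread that may be technical. The sample codes share their letters in both Vaseline libraries and differ between the imiquimod libraries; should they stand for batches, the batch cannot be told apart from the treatment.

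Library totals were 14902782 and 20690182 counts for imiquimod 1 and 2 and 41998172 and 76028955 for Vaseline 1 and 2. Low-level reads over genes with little known use in skin also differed between libraries: the median level of 1768 olfactory and vomeronasal receptor genes, taken here as background, was 0.526 and 1.25 CPM (counts for every 1000000 counts of a library) per exonic kilobase in imiquimod 1 and 2 and 0.377 and 0.0913 in Vaseline 1 and 2. Background was scaled with library totals alone. Gene levels in CPM, here and below, were also scaled with TMM factors (normalisation factors from the trimmed mean of log ratios). These factors were 1.05 and 1.66 in imiquimod 1 and 2 and 0.96 and 0.60 in Vaseline 1 and 2. A larger factor gives a lower CPM. The labelled cell type had its markers: Cd207, which encodes langerin, stood at 1201 and 575 CPM in the imiquimod libraries and 2255 and 6883 CPM in the Vaseline libraries. Keratin RNA was also plentiful, with Krt14 at 6502 and 1726 CPM in imiquimod 1 and 2 and 5560 and 7505 CPM in Vaseline 1 and 2, so RNA of keratinocytes was present in each library.

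The replication genes as a group made up a smaller share of the RNA in the imiquimod libraries. They held 14998 and 22457 counts in imiquimod 1 and 2, or 0.101% and 0.109% of all counts, against 63323 and 121841 counts, or 0.151% and 0.16%, in Vaseline 1 and 2. Summed over the 45 genes, levels scaled with TMM factors were 807 ± 214 CPM with imiquimod and 2131 ± 779 CPM with Vaseline (SD, n = 2 each), a ratio of 0.379. The sums of the groups did not overlap, and nor did the shares of all counts. The size of the ratio depends on the scaling, since the shares, taken without TMM factors, lay closer together. With TMM factors most genes well above background, a set described below, also stood lower with imiquimod. Of that set 82.9% had a negative log2 fold change, and 50.3% were lower in both imiquimod libraries than in both Vaseline libraries. An exact permutation test of 2 against 2 libraries cannot give a two-sided p below 0.333, so the test across all genes was used. In bulk RNA, fewer cells of a dividing type and less of these transcripts per cell cannot be told apart.

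In the edgeR quasi-likelihood test none of the 45 genes passed an adjusted p of 0.05 (Benjamini-Hochberg over all genes tested), where 0.137% of tested genes were called lower and 0.0634% higher with imiquimod. In numbers that was 54 lower and 25 higher, with RLE factors 14 lower and 17 higher, and with library totals alone 5 lower and 8 higher. The smallest adjusted p among the 45 was 0.0723, for Gins2. At an unadjusted p under 0.05, 27 of the 45 were lower and 0 higher, against 5.10% and 8.63% of all tested genes. DESeq2 called 12 of the 38 members to which it gave an adjusted p lower, where it called 6.53% of genes lower and 0.0846% higher; they were Mcm3, Mcm7, Rrm1, Gins2, Pole, Rfc2, Rfc5, Rpa2, Lig1, Uhrf1, Ccne2 and Dut. Limma-voom called only Gins2 of the 45, where 0.345% of genes were called lower and 0.104% higher, and edgeR with a stricter filter on low counts also called Gins2 alone, where 0.434% were lower and 0.0946% higher.

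All 45 genes had a negative log2 fold change (imiquimod over Vaseline) with TMM factors, 44 did with upper-quartile factors and 38 with library totals alone, where Mcm10, Gins3, Cdc45, Pola2, Prim2, Pold2 and Rfc3 were positive. The values ran from -2.35 to -0.32 with a median of -1.38, while the median of all tested genes was 0.41. The tested genes include many near background, which was higher in both imiquimod libraries. A smaller set held the genes whose level averaged at least 5 times the background over the libraries. All 45 members met this bound, but 23 of them only through the Vaseline libraries, their mean over the imiquimod libraries being under 5 times, so the set is partly decided by the treatment difference itself and its values are given here as a description only. Among the 14605 such genes in the same fit the median was -0.68, and 82.9% were negative. At an unadjusted p under 0.05, 13.3% of these 14605 genes were lower in that edgeR fit, beside the 27 of 45 members. When genes above background were fitted alone, the median of the 45 was -0.59 and that of all 14602 genes 0.08, with 39 members negative against 44.3% of all genes; the 6 positive were Mcm10, Gins3, Cdc45, Pola2, Pold2 and Rfc3. In that fit 0 members passed by edgeR, the smallest adjusted p being 0.423, and 14 were lower at an unadjusted p under 0.05, against 4.79% of genes, with 0 higher against 5.47%. DESeq2 on these genes gave Gins2 alone of the 45 an adjusted p under 0.05 (0.0133), where 1.10% of genes were called lower and 0.749% higher; Gins2 is one of the genes in the set only through Vaseline.

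**Figure D1:**
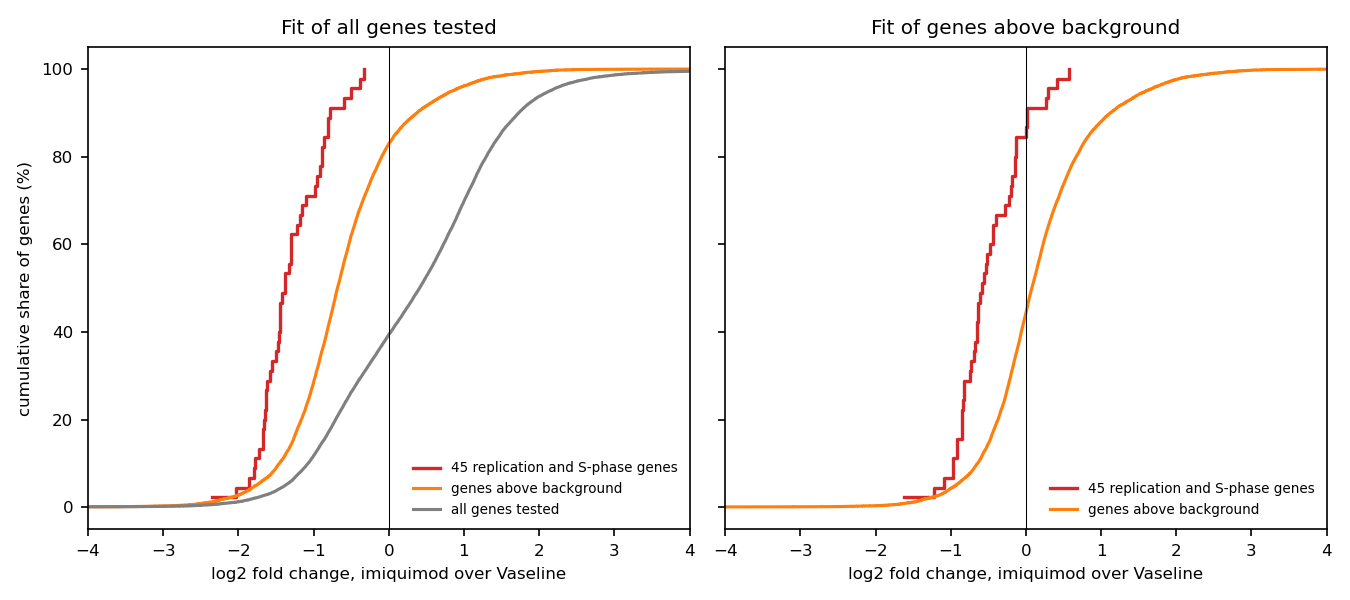
Cumulative share of genes (vertical axis, %) by log2 fold change, imiquimod over Vaseline (horizontal axis), in the fit of all genes tested (left) and the fit of genes above background (right); the red line is the 45 replication and S-phase genes. The red line lies to the left of the other lines over most of its range, with medians of -1.38 against -0.68 for genes above background on the left and -0.59 against 0.08 on the right.

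Replicates differed from each other by about as much as the smaller of these changes. Vaseline 2 stood above Vaseline 1 in 44 of the 45 genes, by a median of 0.75 on the log2 scale, and imiquimod 1 above imiquimod 2 in 35, by a median of 0.54. Both imiquimod libraries lay below both Vaseline libraries in 39 genes, where 20.9% of all tested genes and 50.3% of genes above background did so. The exceptions were Gins3, Orc6, Prim1, Pold2, Rfc3 and Chaf1b. With library totals in place of TMM factors the count was 30 of 45, against 7.42% and 19.3%. A reading that needs no scaling between libraries is the rank within a library, though it does not remove the difference in background. Among 21974 protein-coding genes ranked by level per exonic kilobase, the median member stood at percentile 69.4 and 67.7 in imiquimod 1 and 2 and at 74.2 and 75.5 in Vaseline 1 and 2.

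**Figure D2:**
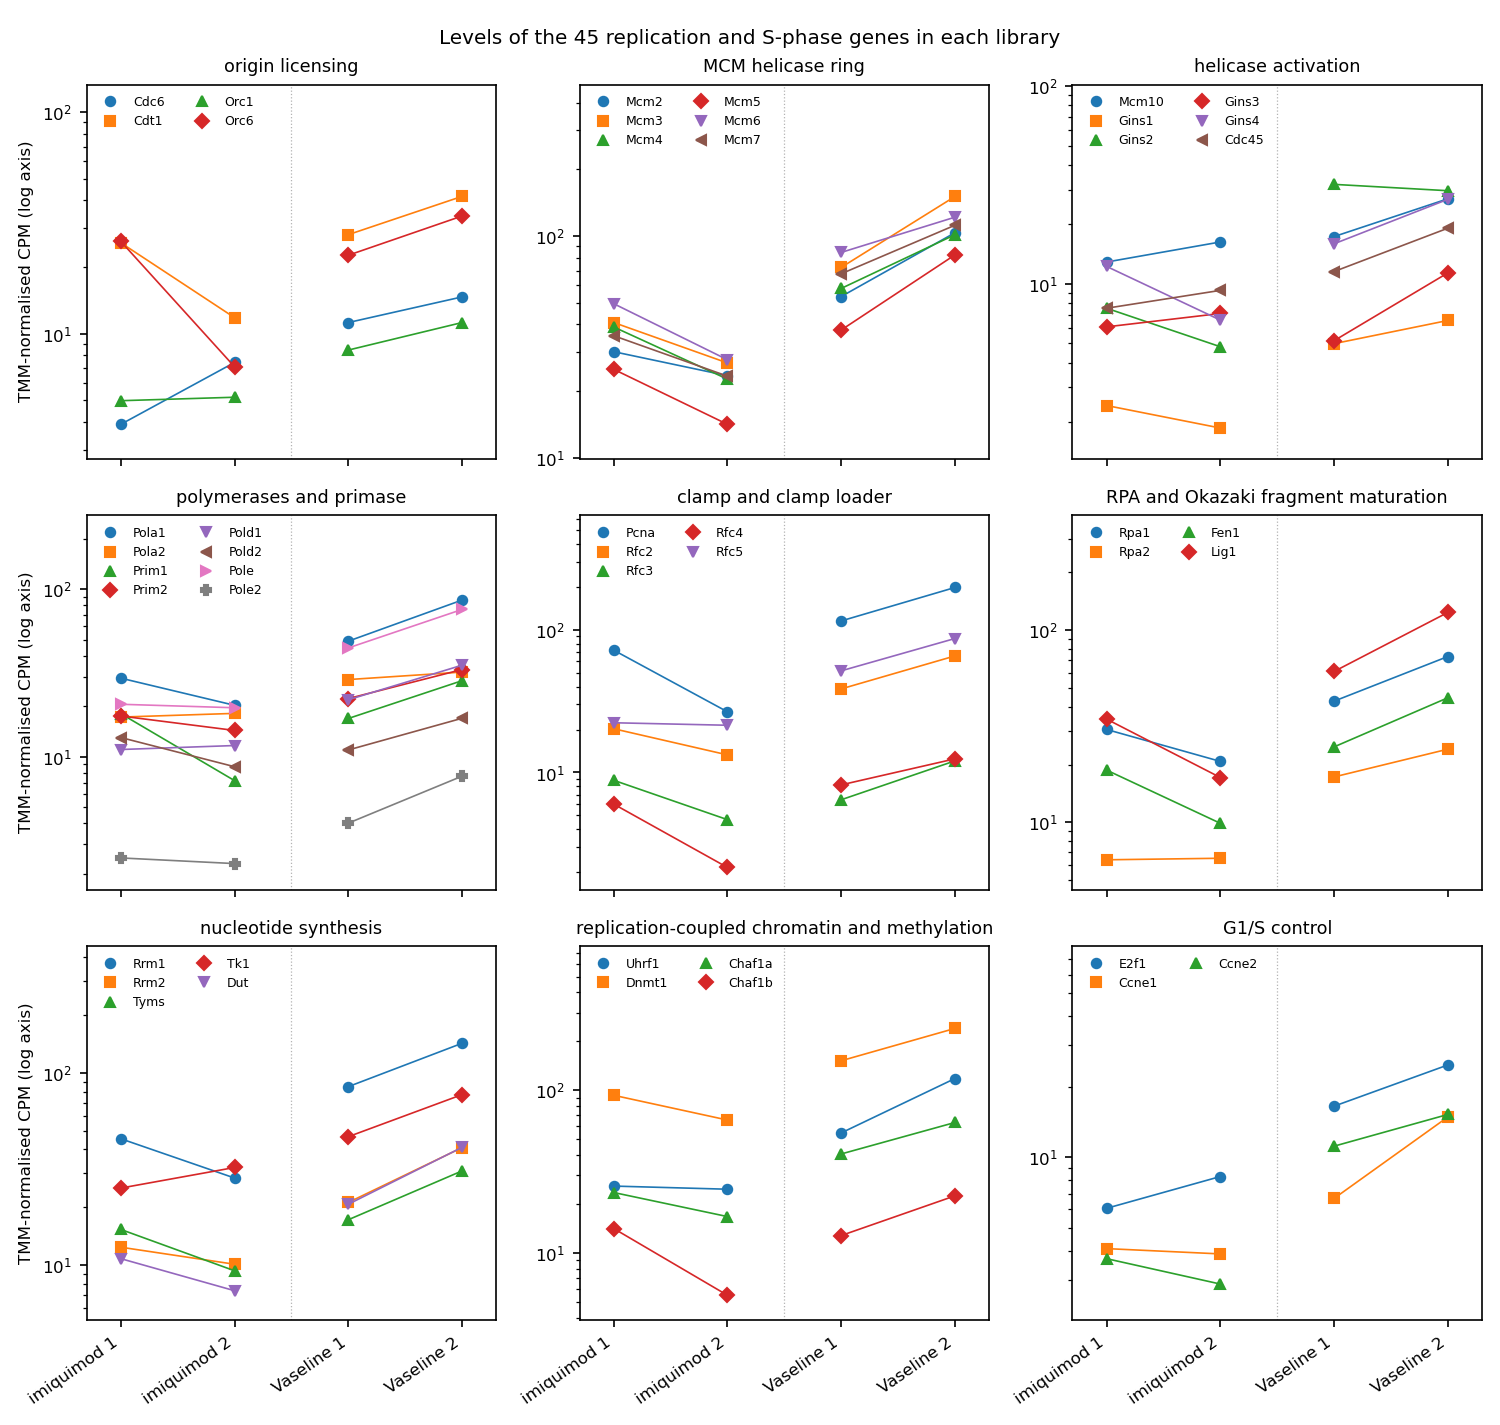
Level of each of the 45 genes (vertical axes, TMM-normalised CPM, log axis) in imiquimod 1 and 2 and Vaseline 1 and 2 (horizontal axes), 1 panel for each role; lines join the libraries of a treatment. Most genes stand lower in both imiquimod libraries, and Orc6, Prim1, Rfc3, Chaf1b, Gins3 and Pold2 are the 6 whose groups overlap.

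The genes of the MCM ring lay close together. Mcm2 to Mcm7 encode the subunits of the hexamer that unwinds DNA at the fork. Mcm3 (ENSMUSG00000041859; GRCm38 chromosome 1, 20802968 to 20820312, minus strand) had 40.8 and 26.8 CPM in imiquimod 1 and 2, against 72.4 and 151 CPM in Vaseline 1 and 2. Its log2 fold change was -1.73 (SE 0.70, edgeR adjusted p = 0.29), and DESeq2 called it (adjusted p = 0.0408). Mcm5 (ENSMUSG00000005410; chromosome 8, 75109569 to 75128439, plus strand) had 25.1 and 14.2 CPM in the imiquimod libraries and 37.8 and 82.4 CPM in the Vaseline libraries, a log2 fold change of -1.63 (SE 0.65, edgeR adjusted p = 0.286). In both genes every imiquimod value lay below every Vaseline value, while the Vaseline libraries differed more from each other than Vaseline 1 did from imiquimod 1. The other subunits behaved alike: all 6 log2 fold changes lay between -1.73 and -1.38, each at an unadjusted p under 0.05 by edgeR, and the groups of none overlapped. Among genes above background 13.3% were lower at such a p in the same fit, and 50.3% were lower without overlap. The median of the 6 subunits was -0.72 with library totals alone and -0.78 among genes above background, and all 6 stayed negative in both.

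Levels of the subunits relative to each other were also alike between libraries. Per exonic kilobase Mcm3 was the highest and Mcm2 the lowest of the 6 in each library, and the ratio of highest to lowest was 2.51 and 2.12 in imiquimod 1 and 2 and 2.51 and 2.70 in Vaseline 1 and 2. Reads of Mcm7 cannot all be placed with certainty, since 12.6% of its exonic bases are shared with other genes on either strand, and 3.89% on the same strand. Among these genes are the microRNA genes Mir25 and Mir93.

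Origin licensing genes, which act before the ring is loaded, had smaller fold changes. ORC1 and ORC6 belong to the origin recognition complex, and CDC6 and CDT1 bring the helicase to it. Cdc6 had 3.90 and 7.41 CPM in the imiquimod libraries and 11.2 and 14.7 CPM in the Vaseline libraries, a log2 fold change of -1.15 (SE 0.61, edgeR adjusted p = 0.375). Its imiquimod values were 1.49 and 1.87 times the background of their libraries, which limits the precision of its fold change. Orc6, the gene of this role with the highest level per kilobase, had 26.1 and 7.09 CPM in imiquimod 1 and 2, against 22.6 and 34.0 CPM in Vaseline 1 and 2. Here imiquimod 1 stood above Vaseline 1 and the groups overlapped. The 4 log2 fold changes ran from -1.15 to -0.81, none at an unadjusted p under 0.05, and their median was -0.13 with library totals alone and -0.16 among genes above background.

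The genes that switch the helicase on had the widest range of fold changes of any role. GINS is a ring-shaped complex of the proteins encoded by Gins1 to Gins4, and joins CDC45 and MCM in the active helicase; MCM10 helps to start it. Gins2 had the most negative log2 fold change of the 45, at 7.54 and 4.82 CPM in imiquimod 1 and 2 and 31.9 and 29.6 CPM in Vaseline 1 and 2. The replicates of each treatment lay close together and far from the other treatment. Its log2 fold change was -2.35 (SE 0.64, edgeR adjusted p = 0.0723), -1.62 among genes above background and -1.58 with library totals alone. By DESeq2 (adjusted p = 0.0048) and limma-voom (adjusted p = 0.0205) it passed. However, 67.3% of the exonic bases of Gins2 (ENSMUSG00000031821; chromosome 8, 120578633 to 120589304, minus strand) are overlapped by exons of Gse1 on the other strand, and the strand setting of the counting is not given in the sources used here, so its counts may hold reads of that gene. In imiquimod 2 Gins2 stood at 1.55 times the background.

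Gins3, which encodes another subunit of the same complex, stood at the other end of the 45. It had 6.07 and 7.09 CPM in the imiquimod libraries and 5.17 and 11.4 CPM in the Vaseline libraries, so the groups overlapped. Its log2 fold change was -0.32 with TMM factors, 0.64 with library totals alone and 0.57 among genes above background, none of them past the threshold. The ratio of Gins2 to Gins3 counts, which needs no scaling between libraries, was 1.24 and 0.679 in imiquimod 1 and 2 and 6.17 and 2.60 in Vaseline 1 and 2. Gins1 had 2.43 and 1.87 CPM in the imiquimod libraries and 4.99 and 6.54 CPM in the Vaseline libraries (log2 fold change -1.46, edgeR adjusted p = 0.349). It rested on as few as 38 counts in imiquimod 1. Gins4 had 12.3 and 6.57 CPM with imiquimod and 16.0 and 26.8 CPM with Vaseline, a log2 fold change of -1.22. Cdc45 and Mcm10 had log2 fold changes of -0.86 and -0.59, but 0.01 and 0.27 among genes above background. Whether the subunits of GINS differ from each other in fold change was not tested.

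Among the polymerases the catalytic subunits of epsilon, alpha and delta had the most negative values. Pole, the catalytic subunit of the leading-strand polymerase epsilon, had 20.6 and 19.6 CPM in imiquimod 1 and 2, against 44.6 and 75.7 CPM in Vaseline 1 and 2. Pola1, the catalytic subunit of polymerase alpha, which extends RNA primers, had 29.5 and 20.3 CPM with imiquimod and 48.9 and 86.1 CPM with Vaseline. Both had groups that did not overlap, with log2 fold changes of -1.58 (SE 0.64) and -1.45 (SE 0.65) and edgeR adjusted p values of 0.294 and 0.33. Pold1, the catalytic subunit of the lagging-strand polymerase delta, had -1.33. Its partner Pold2 had 13.0 and 8.73 CPM in the imiquimod libraries and 11.0 and 16.97 CPM in the Vaseline libraries, with overlapping groups. The log2 fold change of Pold2 was -0.38 with TMM factors but 0.46 with library totals alone and 0.41 among genes above background. The accessory subunits Pola2 and Pole2 had -0.78 and -1.30, and the primase subunits Prim1 and Prim2 had -0.88 and -0.81. Pole2 had the lowest level per kilobase of the 45, at 1.06 times the background in imiquimod 2.

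Pcna had the highest level per exonic kilobase of the 45 in each library. The clamp it encodes tethers polymerases to DNA and is opened by the RFC complex. Pcna (ENSMUSG00000027342; chromosome 2, 132249162 to 132253314, minus strand) had 71.9 and 26.6 CPM in imiquimod 1 and 2, against 115 and 198 CPM in Vaseline 1 and 2. Every imiquimod value lay below the Vaseline values, but imiquimod 1 was nearer to Vaseline 1 than to imiquimod 2. The log2 fold change was -1.68 (SE 0.74, edgeR adjusted p = 0.325), and -0.97 among genes above background. The processed pseudogene Pcna-ps2 held 203 and 101 counts with imiquimod and 440 and 649 with Vaseline, so a part of the Pcna reads may have been counted there.

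The loader subunits Rfc2 and Rfc5 stood lower in both imiquimod libraries. Rfc2 had 20.3 and 13.3 CPM in imiquimod 1 and 2 and 38.5 and 65.6 CPM in Vaseline 1 and 2. Rfc5 had 22.3 and 21.4 CPM with imiquimod and 51.5 and 86.8 CPM with Vaseline. Their log2 fold changes were -1.65 (SE 0.64) and -1.66 (SE 0.66), with edgeR adjusted p values of 0.278 and 0.284 and DESeq2 adjusted p values of 0.0475 and 0.0349. Exons of Lat2 on the other strand overlap 15.1% of the exonic bases of Rfc2, which makes its counts uncertain as the strand setting is not given. Rfc4 had -1.44, with 12.7% of its exonic bases overlapped by Eif4a2 on the other strand. Rfc3 had -0.50 with TMM factors, 0.33 with library totals alone and 0.30 among genes above background.

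RPA coats single-stranded DNA, FEN1 trims the flaps of Okazaki fragments, the short pieces of the lagging strand, and LIG1 seals them. Lig1 had 34.5 and 17.1 CPM in the imiquimod libraries and 61.1 and 124 CPM in the Vaseline libraries. Rpa2 had 6.39 and 6.51 CPM with imiquimod and 17.2 and 24.1 CPM with Vaseline. The imiquimod values of Rpa2 were nearly equal, and in both genes they lay below the Vaseline values. The log2 fold change was -1.86 (SE 0.68, edgeR adjusted p = 0.249, DESeq2 adjusted p = 0.0374) for Lig1 and -1.68 (SE 0.62, edgeR adjusted p = 0.249, DESeq2 adjusted p = 0.0394) for Rpa2. Rpa1 and Fen1 had -1.18 and -1.30. The value of Fen1 is uncertain, since 84.2% of its exonic bases are overlapped by genes on the other strand and the strand setting is not given.

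The 5 genes of deoxynucleotide supply were all negative, with medians of -1.48 with TMM factors, -0.58 with library totals alone and -0.64 among genes above background. Dut, which removes dUTP so that uracil is not built into DNA, had 10.8 and 7.35 CPM in imiquimod 1 and 2, against 20.7 and 41.0 CPM in Vaseline 1 and 2. Its log2 fold change was -1.79 (SE 0.62, edgeR adjusted p = 0.213, DESeq2 adjusted p = 0.0412). Rrm2, the S-phase subunit of ribonucleotide reductase, had 12.4 and 10.1 CPM with imiquimod and 21.2 and 40.9 CPM with Vaseline (log2 fold change -1.48, edgeR adjusted p = 0.303). The groups of both genes did not overlap. Its partner Rrm1, the large subunit, had a log2 fold change of -1.63. Tk1, the salvage kinase of thymidine, had 25.2 and 32.2 CPM in the imiquimod libraries and 46.6 and 77.2 CPM in the Vaseline libraries. Here imiquimod 2, not imiquimod 1, was the higher of its group. Tk1 and the thymidylate synthase gene Tyms had log2 fold changes of -1.11 and -0.99, or -0.23 and -0.19 among genes above background.

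Chromatin and DNA methylation must be copied with the sequence. UHRF1 binds hemimethylated DNA behind the fork and brings in the methyltransferase DNMT1, and CHAF1A and CHAF1B are subunits of the complex that places new nucleosomes there. Uhrf1 had 25.7 and 24.6 CPM in imiquimod 1 and 2, against 54.7 and 118 CPM in Vaseline 1 and 2. Its log2 fold change was -1.78 (SE 0.67, edgeR adjusted p = 0.268, DESeq2 adjusted p = 0.0316). Dnmt1 had 93.1 and 65.6 CPM with imiquimod and 152 and 240 CPM with Vaseline, a log2 fold change of -1.31 (SE 0.77, edgeR adjusted p = 0.406). Neither gene had overlapping groups. Chaf1a had -1.38, with 52.5% of its exonic bases overlapped by Ubxn6 on the other strand, and Chaf1b -0.89.

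At the G1/S step, cyclin E, encoded by Ccne1 and Ccne2, drives the kinase CDK2, and E2F1 activates transcription of much of the set. Ccne2 had 3.71 and 2.89 CPM in imiquimod 1 and 2 and 11.2 and 15.2 CPM in Vaseline 1 and 2. Each imiquimod value was well under the lower Vaseline value. The log2 fold change of Ccne2 was -2.03 (SE 0.65, edgeR adjusted p = 0.169, DESeq2 adjusted p = 0.0246), the second most negative of the 45, and in edgeR it passed without Vaseline 1 (adjusted p = 0.0384), where 0.768% of genes were called lower and 7.17% higher. The imiquimod values were 2.12 and 1.09 times the background of their libraries, so Ccne2 was hardly above it in imiquimod 2. Ints8 on the other strand overlaps 17.4% of the exonic bases of Ccne2. E2f1 had 6.07 and 8.29 CPM with imiquimod and 16.5 and 24.7 CPM with Vaseline, a log2 fold change of -1.50 (SE 0.61, edgeR adjusted p = 0.293), and Ccne1 had -1.44.

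**Figure D3:**
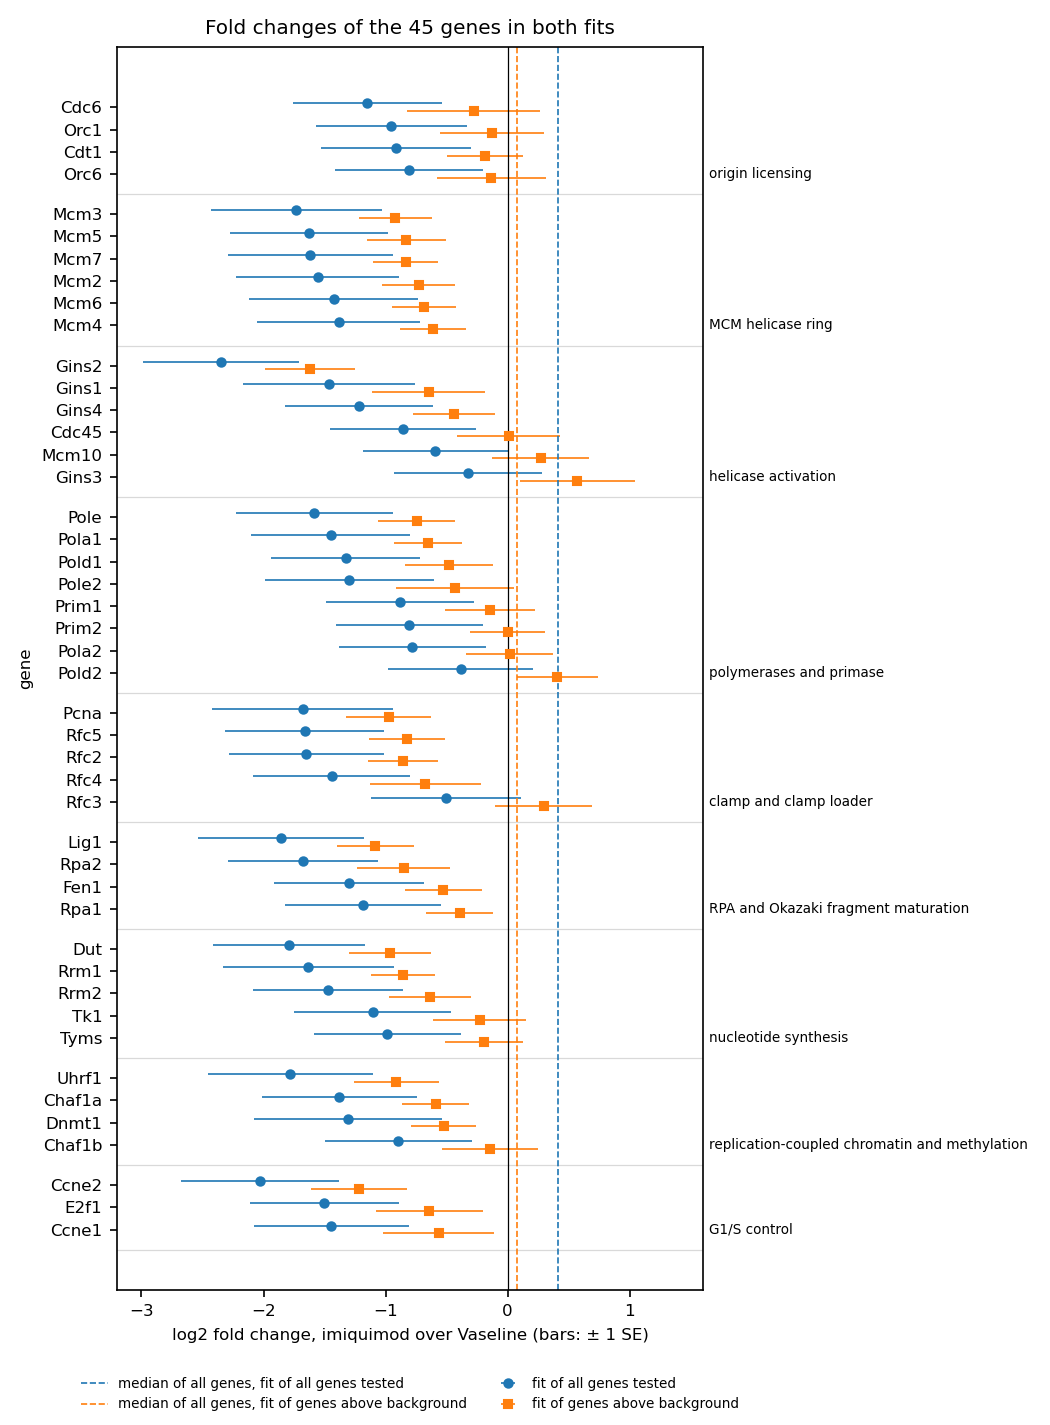
Log2 fold change, imiquimod over Vaseline, of the 45 genes (horizontal axis, bars ± 1 SE) by role, in the fit of all genes tested (circles) and of genes above background (squares); dashed lines are the medians of all genes in each fit, 0.41 and 0.08. All circles lie below 0, 6 squares lie above it, and Gins2 is the leftmost point in both fits at -2.35 and -1.62.

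E2F proteins bind sites close to TTTNNCGC, and these letters were looked for in the 250 bases before the start of each gene, on both strands, in promoter windows from RefSeq (GRCm38.p6). Windows were found for 37 of the 45 genes, 45 windows in all. The site was present in 11 of the 45 windows, from 10 genes, and in 4.28% of all 32851 windows. Member windows were also richer in G and C, with a median of 59.6% against 52.4%. The CCAAT box, CCAAT, was in 25 of the 45 windows and 33.9% of all windows, and the GC box, GGGCGG, in 29 and 32.7%. The cell cycle homology region of mitotic genes, read as TTTGAA or TTCGAA, was in 6 and 2 of the 45 windows and in 16.0% and 1.34% of all. Matches of different motifs were counted apart and may share bases. The sequences below are printed 5′ to 3′ on the strand of the gene, with the letters of the E2F site in capitals, to show the sites of genes of several roles, from the most negative fold change among genes with a match (Uhrf1, -1.78) to the least negative (Gins3, -0.32). Uhrf1 is shown from chr17:56304112-56304151 (plus), 1 of its 2 windows, Mcm5 from chr8:75109340-75109383 (plus), Mcm6 from chr1:128359729-128359831 (minus), Mcm7 from chr5:138172025-138172064 (minus), Pola1 from chrX:93632270-93632309 (minus), Cdc6 from chr11:98907997-98908036 (plus) and Gins3 from chr8:95633502-95633541 (plus).
Uhrf1: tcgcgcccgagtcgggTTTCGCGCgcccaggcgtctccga
Mcm5: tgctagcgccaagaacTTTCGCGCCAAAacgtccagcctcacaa
Mcm6: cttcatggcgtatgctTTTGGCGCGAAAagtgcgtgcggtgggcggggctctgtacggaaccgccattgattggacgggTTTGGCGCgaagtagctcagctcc
Mcm7: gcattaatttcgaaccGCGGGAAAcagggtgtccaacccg
Pola1: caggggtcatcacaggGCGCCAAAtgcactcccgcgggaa
Cdc6: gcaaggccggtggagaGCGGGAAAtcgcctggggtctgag
Gins3: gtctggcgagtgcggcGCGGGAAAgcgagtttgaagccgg
In Mcm5, and at the first site of Mcm6, a match on each strand overlaps the other, so the capitals run over both; Mcm6 holds a further match nearer the start. Cdc6, Mcm7 and Gins3 share the same letters in the site, while their log2 fold changes were -1.15, -1.62 and -0.32. The median log2 fold change was -1.37 for the 10 genes with a match in these 250 bases and -1.33 for the 27 with a window and none there. Over the whole windows of 300 bases, which add 50 bases after the start, the site was in 17 of the 45, from 16 genes. It was in 5.17% of all whole windows. Some of the 27 thus hold a match outside the 250 bases, and medians by the whole window were not computed. A match describes letters and is not a measured binding site.

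How far the genes stood above background differed between libraries. The median member was at 7.82 and 3.45 times the background in imiquimod 1 and 2 and at 14.6 and 58.6 times in Vaseline 1 and 2. At least 5 times the background was reached by 29 and 13 of the 45 genes in imiquimod 1 and 2 and by 42 and 45 in Vaseline 1 and 2. Under 2 times lay 2 genes in imiquimod 1, Cdc6 and Pole2, and 10 in imiquimod 2, which were Ccne1, Ccne2, Cdc6, Chaf1b, Gins1, Gins2, Orc1, Pole2, Rfc3 and Rfc4; no gene lay there in the Vaseline libraries. Background itself was highest in imiquimod 2 and lowest in Vaseline 2, so these ratios carry both differences. The part of background in the fold changes of single genes was not tested.

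**Figure D4:**
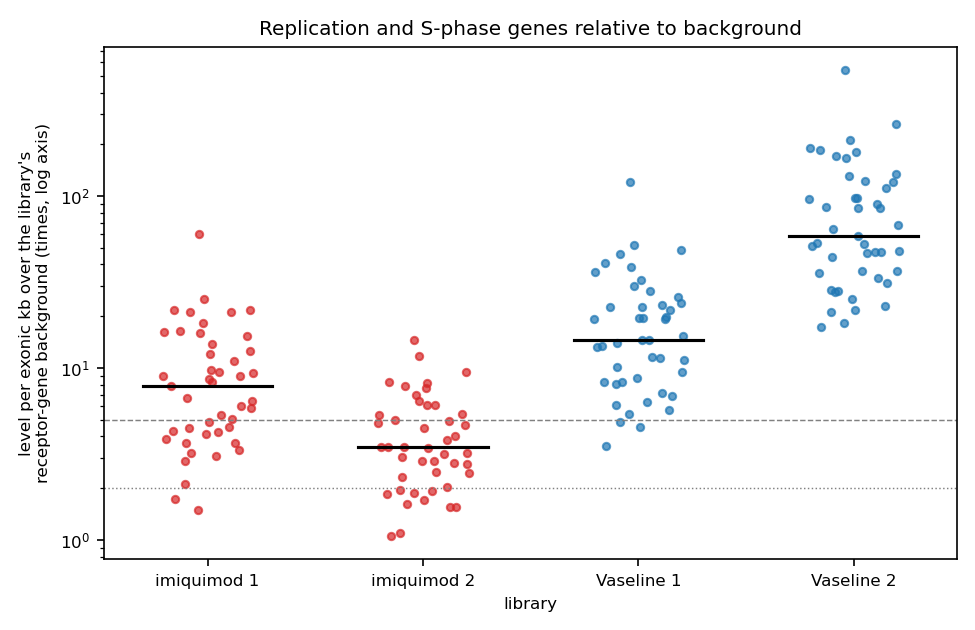
Level per exonic kilobase of each of the 45 genes divided by the background of the same library (vertical axis, times, log axis) in imiquimod 1 and 2 (red) and Vaseline 1 and 2 (blue); black bars are medians, and the dashed and dotted lines mark 5 and 2 times. The medians are 7.82 and 3.45 in the imiquimod libraries and 14.6 and 58.6 in the Vaseline libraries.

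Genes next to the 45 in the pathway had medians nearer to that of all genes above background. Of 31 other replication fork subunits, 30 had a negative log2 fold change, with a median of -0.91, and none passed by edgeR. DESeq2 called Gmnn and Top2a lower, where it called 6.53% of genes lower, so 2 of 31 is near that share. With library totals alone 18 were negative (median -0.09), and the median was -0.19 among the 29 above background. Their smallest p values belonged to Gmnn, encoding the licensing inhibitor geminin, and Top2a, encoding a topoisomerase of S, G2 and M phase. Gmnn had 4.86 and 3.74 CPM in the imiquimod libraries and 10.1 and 20.2 CPM in the Vaseline libraries (log2 fold change -1.84, edgeR adjusted p = 0.209, DESeq2 adjusted p = 0.0448). Top2a had 66.4 and 53.6 CPM with imiquimod and 174 and 397 CPM with Vaseline (log2 fold change -2.25, edgeR adjusted p = 0.255, DESeq2 adjusted p = 0.00692). Both are genes of dividing cells, and their groups did not overlap.

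Of 22 other G1/S regulators, all were negative with TMM factors and none passed by edgeR. DESeq2 called Ccnd1 and Rbl1 lower, where it called 6.53% of genes lower. The list had a median of -0.71, but 9 were negative with library totals alone, and the 21 above background had a median of 0.00, with 11 negative. Ccnd1, encoding cyclin D1, had 33.7 and 20.7 CPM in imiquimod 1 and 2, against 86.0 and 132 CPM in Vaseline 1 and 2 (log2 fold change -2.01, edgeR adjusted p = 0.213, DESeq2 adjusted p = 0.014). Rbl1, encoding the pocket protein p107, had 21.7 and 18.8 CPM with imiquimod and 46.9 and 72.7 CPM with Vaseline (log2 fold change -1.56, edgeR adjusted p = 0.299, DESeq2 adjusted p = 0.0451). Neither gene had overlapping groups. The 7 CDK inhibitors, which hold cells out of S phase, had a median of -0.70, but 0.09 with library totals alone and 0.01 among the 5 above background, and none passed by edgeR or DESeq2. Cdkn2d had 4.54 and 4.44 CPM in the imiquimod libraries and 8.51 and 13.5 CPM in the Vaseline libraries (log2 fold change -1.30). Cdkn1b, encoding p27, had 30.3 and 28.0 CPM with imiquimod and 51.6 and 90.9 CPM with Vaseline (log2 fold change -1.29). The groups of neither overlapped.

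In 16 genes of replication-linked repair the median was -0.73. Brca1, of homologous recombination, had 13.5 and 17.9 CPM in imiquimod 1 and 2 and 25.5 and 43.4 CPM in Vaseline 1 and 2 (log2 fold change -1.12). Nucleotide enzymes outside the 45 had a median of -0.70 over 19 genes. Dck, a deoxynucleoside kinase, had 7.86 and 8.58 CPM with imiquimod and 22.6 and 38.3 CPM with Vaseline (log2 fold change -1.88). Impdh1, of guanine nucleotide synthesis, had 25.9 and 23.6 CPM with imiquimod and 46.0 and 91.0 CPM with Vaseline (log2 fold change -1.47). None of these repair and nucleotide genes passed by edgeR and 1, Dck, did by DESeq2 (adjusted p = 0.0217), where 6.53% of genes were called lower. The medians of the repair and nucleotide lists were 0.12 and 0.13 with library totals alone and -0.04 and 0.02 in the fit of genes above background.

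Of 10 markers of S, G2 and M phase all were negative (9 with library totals alone), with a median of -1.66, and -0.81 among genes above background. By edgeR 2 fell past the threshold, where 0.137% of genes were called lower, and 5 did by DESeq2, where 6.53% were. Bub1, a spindle checkpoint kinase, had 2.94 and 3.44 CPM in the imiquimod libraries and 12.5 and 31.2 CPM in the Vaseline libraries (log2 fold change -2.76, edgeR adjusted p = 0.0235). Its imiquimod values were 1.35 and 1.04 times the background of their libraries, with 46 counts in imiquimod 1, which limits the precision of its fold change. Bub1 is among genes above background only through the Vaseline libraries, so its results in that set are a description only. Ccnb2, encoding cyclin B2, had 7.41 and 5.60 CPM with imiquimod and 27.8 and 53.0 CPM with Vaseline (log2 fold change -2.65, edgeR adjusted p = 0.0332). Their groups did not overlap. Both calls were kept with upper-quartile factors (adjusted p = 0.0475 and 0.0346), DESeq2 (0.0028 and 0.00234), limma-voom (0.0142 and 0.00926), the stricter filter (0.0178 and 0.0094), DESeq2 among genes above background (0.0329 and 0.00159) and without Vaseline 1 (0.00424 and 0.0176). They were lost without Vaseline 2 (0.998 and 0.999), without imiquimod 1 (0.28 and 0.28), without imiquimod 2 (1.0 and 1.0) and among genes above background (0.441 and 0.405), and with RLE factors (0.095 and 0.138), library totals alone (0.298 and 0.298), no filter (0.496 and 0.496) and the replicate block (0.705 and 0.705). Over these alternatives the log2 fold change stayed negative, from -3.40 to -1.76 for Bub1 and from -3.15 to -1.76 for Ccnb2. The 45 genes summed to 3.45 and 2.54 times these markers in imiquimod 1 and 2 and to 2.22 and 1.68 times in Vaseline 1 and 2.

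Markers of the cell types a skin preparation can hold also differed between libraries. The 8 Langerhans cell markers were Cd207, Epcam, Cd74, H2-Aa, H2-Ab1, Csf1r, Itgax and Mfge8, all detected in each library. They summed to 8393 and 6951 CPM in imiquimod 1 and 2 and to 22967 and 60694 CPM in Vaseline 1 and 2. All 8 had a negative log2 fold change, with a median of -2.43. None of the 8 passed by edgeR, and 7 were called lower by DESeq2, Cd207 among them (adjusted p = 0.012), where 6.53% of genes were called lower. For each 1000 CPM of these markers the replication genes had 114 and 94.3 CPM in the imiquimod libraries and 68.8 and 44.2 CPM in the Vaseline libraries. The 8 basal keratinocyte markers summed to 17784 and 4415 CPM with imiquimod and 17264 and 20363 CPM with Vaseline, and for each 1000 CPM of them the replication genes had 53.9 and 148 CPM in imiquimod 1 and 2 and 91.5 and 132 CPM in Vaseline 1 and 2. Relative to the sum of the Langerhans cell markers the replication genes were thus higher in both imiquimod libraries. Cd74 made up the largest part of that sum, with 3234 and 2547 CPM in imiquimod 1 and 2 and 9310 and 22386 CPM in Vaseline 1 and 2. Epcam had the least negative log2 fold change of the 8 (-1.48), with 238 and 55.8 CPM in imiquimod 1 and 2 and 273.5 and 544 CPM in Vaseline 1 and 2. The ratio of the summed replication genes to each marker alone was not tested. Relative to the sum of the basal keratinocyte markers the groups overlapped. The ratio of Pcna to Cd207 was 0.0599 and 0.0463 in the imiquimod libraries and 0.0511 and 0.0287 in the Vaseline libraries. That ratio of single genes overlapped between treatments. Activated keratinocyte markers summed to 1442 and 432 CPM with imiquimod and 352 and 757 CPM with Vaseline. Though the sums overlapped, all 6 had a positive log2 fold change (median 1.07, and 1.78 in the fit of genes above background). Of the 6, 0 passed by edgeR or by DESeq2 over all genes. By DESeq2 among genes above background, where 0.749% were called higher, Krt6a, Krt6b and Sprr2d passed (adjusted p = 0.0031, 0.0046 and 0.00083). The 9 mitochondrially encoded genes, a sign of RNA and cell quality, summed to 3436 and 4308 CPM with imiquimod and 7767 and 13272 CPM with Vaseline.

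T cell markers, 8 in number, summed to 163 and 133 CPM in imiquimod 1 and 2 and 281 and 317 CPM in Vaseline 1 and 2. Neutrophil markers went the other way, with 69.8 and 258 CPM in the imiquimod libraries and 11.9 and 48.2 CPM in the Vaseline libraries. All 7 had a positive log2 fold change, but S100a9 alone had 39.2 and 152 CPM in imiquimod 1 and 2 and 0.774 and 30.95 CPM in Vaseline 1 and 2. Ly6g had 1.85 and 1.96 CPM with imiquimod and 1.37 and 1.23 CPM with Vaseline (edgeR adjusted p = 0.698). Retnlg had 0.767 and 6.25 CPM with imiquimod and 0.624 and 0.528 CPM with Vaseline. Of the 7 neutrophil markers 2 rose past the threshold by edgeR, where 0.0634% of genes were called higher. They were Mmp8 (adjusted p = 0.0012) and S100a8 (adjusted p = 0.0193). By DESeq2 0 did, S100a8 having an adjusted p of 0.119 and Mmp8 none. Mmp8 was not among the genes above background and held 43 and 747 counts in imiquimod 1 and 2, against 75 and 23 in Vaseline 1 and 2. With library totals alone the adjusted p was 0.267 for Mmp8 and 0.21 for S100a8, and among genes above background it was 0.447 for S100a8 by edgeR and 0.00341 by DESeq2. Sums of the lesser lists were 1459 and 688 CPM with imiquimod and 3235 and 3237 CPM with Vaseline for suprabasal keratinocytes, 57.4 and 117 CPM with imiquimod and 133 and 161 CPM with Vaseline for monocytes, and 17.8 and 42.3 CPM with imiquimod and 30.1 and 133 CPM with Vaseline for fibroblasts. Melanocyte and endothelial markers were near those levels or lower. No marker was at 0 in any library. The part of any of these cell types, or of RNA quality, in the levels of the replication genes was not tested.

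**Figure D5:**
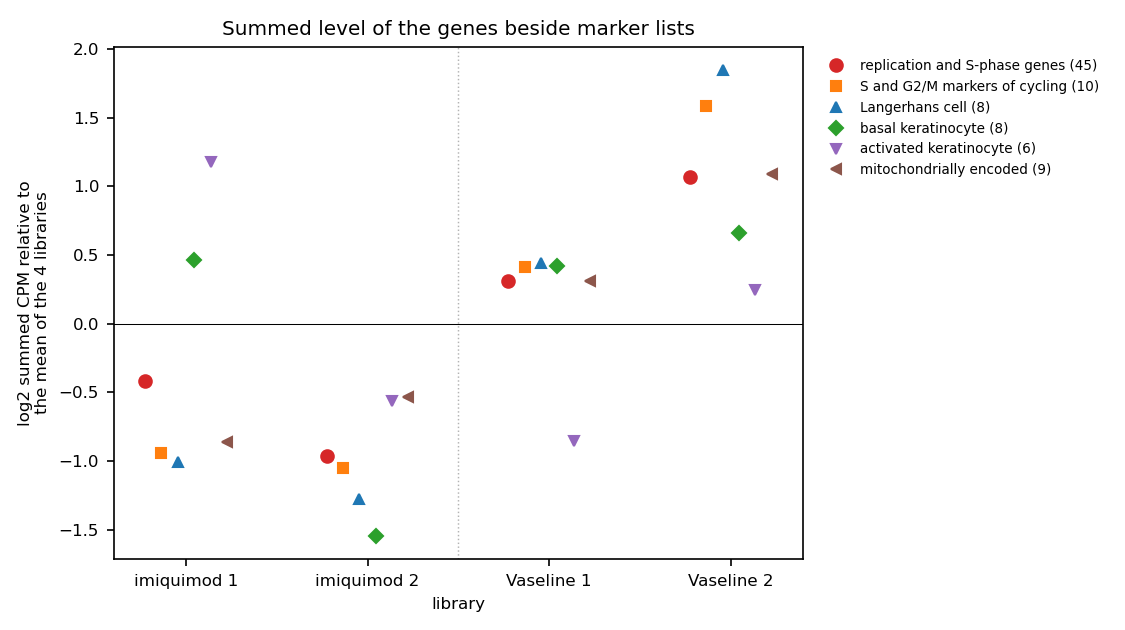
Summed TMM-normalised CPM of each list (vertical axis, on a log2 scale against the average over the 4 libraries) in imiquimod 1 and 2 and Vaseline 1 and 2 (horizontal axis). The sums of the replication genes, cycling markers, Langerhans cell markers and mitochondrially encoded genes are lower in both imiquimod libraries, while the sums of basal and activated keratinocyte markers overlap between treatments.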

How the data were processed

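RNA of isolated ear Langerhans cells was measured in 2 imiquimod and 2 Vaseline libraries. Per the labels' protocols, libraries were made from total RNA with a stranded low-input total RNA kit. The submitters' processing notes name StringTie, SAMtools, HISAT2 and Trimmomatic, with the build GRCm38; versions, annotation release, strand setting and treatment of multi-mapped reads are not given in the sources used here. The deposited values are whole-number counts per gene, not scaled to depth.

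Counts were tested with edgeR 4.0.16 (R 4.3.3; quasi-likelihood, TMM factors, two-sided), after edgeR's filterByExpr at a minimum count of 10 and total of 15, which kept 39439 of 55487 genes. Calls used an adjusted p (Benjamini-Hochberg) under 0.05. Log2 fold changes divide imiquimod by Vaseline; their SE was derived from F. Exon unions, positions and overlaps came from GENCODE vM21 (GRCm38), which matched 55227 genes. Levels are TMM-normalised CPM; background ratios used library totals. Genes above background had a mean ratio of at least 5 over the libraries, a mean that gives most weight to Vaseline 2. The test was also run on simulated data, and the outcome is not reported here. Promoters came from the RefSeq table.

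Values in every library are given for the member of smallest p and of highest level per kilobase in each of 9 roles, the second smallest p in roles of 5 or more, and 2 genes of smallest p in each related list, 1 of which is not reported here; Gins3 was added after its values were seen. The members and lists were chosen with earlier results of these data known. Alternatives were RLE, upper-quartile and no factors, DESeq2 1.42.0, limma-voom (limma 3.58.1), no and a stricter filter (at least 10 counts in each library and 50 in total), genes above background, a replicate block and leaving out each library.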

Additional observations from a re-analysis of the deposited data

How the results depend on the processing

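Over all tested genes 79 were called (25 higher, 54 lower). The count was 31 (17 higher, 14 lower) with RLE factors, 97 (41 higher, 56 lower) with upper-quartile factors and 13 (8 higher, 5 lower) with library totals alone, so the balance of higher and lower calls depended on the scaling. It was 704 (9 higher, 695 lower) with DESeq2, 177 (41 higher, 136 lower) with limma-voom, 0 without a filter and 151 (27 higher, 124 lower) with the stricter filter. It was 0 among genes above background, and 266 (108 higher, 158 lower) there with DESeq2. Leaving out 1 library gave 8 (8 higher, without imiquimod 2) to 3276 (2959 higher, 317 lower, without Vaseline 1). Of the 45 members 0 were called by edgeR; 12 were by DESeq2, and 1, Gins2, by limma-voom, with the stricter filter and by DESeq2 among genes above background. Leaving out 1 library gave 0 to 1 members, the 1 being Ccne2 without Vaseline 1. The median log2 fold change of the members moved from -1.38 to -0.54 with library totals alone, -0.59 among genes above background and -0.63 there with DESeq2, and ran from -1.77 to -0.97 over the leave-outs; elsewhere it moved by less than the replicate SD of 0.432. The replicate numbers share no stated source. With them as a replicate block, 1 gene and 0 members were called (median -1.38). Deviations of equally numbered libraries correlated at -0.331, and with a crossed replicate block, chosen after seeing the data, 0 genes and 0 members were called. Pold2 turned positive with library totals alone (0.46), among genes above background (0.41) and there with DESeq2 (0.37). The cause of these changes was not tested. Counts of members as low as 38 limit the precision of the rarer genes.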
